A study of Mus musculus with 18 samples.

Results

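The response of bone marrow-derived macrophages (BMDMs) to apoptotic cells (ACs) was compared between 2 genotypes, gene by gene, as an interaction: the AC-against-untreated difference in HDAC3 KO macrophages minus the same difference in WT macrophages. Members were chosen by label alone, as the 12 libraries of the 18 in the series that were labelled WT or HDAC3 KO and untreated or AC-treated, with 3 libraries in each of the 4 groups. The WT label covers mice that the study's methods describe as HDAC3 f/f, whose Hdac3 exon 7 lies between LoxP sites. The HDAC3 KO label covers M-HDAC3-/- mice, which carry the same floxed alleles and Cre recombinase in the Lyz2 locus, so that deletion depends on Cre activity in myeloid cells. The floxed parent mice were C57BL/6J per the study's methods, and the ages of the marrow donors were not given in the sources used here. Femoral marrow was differentiated in medium conditioned by L929 cells. To obtain ACs, K562 cells (an established human leukemia line) were irradiated with UV-B for 15 min. Macrophages met them for 45 min, were washed and were kept for 5 h before RNA extraction. Untreated macrophages are those the labels give as having had no treatment, and the other 6 libraries of the series, with non-apoptotic cells, enter only 1 alternative fit. The study's methods give 3 animals per group, and the labels do not tie a library to an animal.

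Efferocytosis is the uptake and digestion of dying cells by phagocytes. Receptors such as MERTK, AXL and CD36 recognise the dying cell directly or through bridging proteins such as GAS6, and the engulfed membrane delivers cholesterol that activates the liver X receptors (LXRs). HDAC3 is a histone deacetylase that works inside the NCoR and SMRT corepressor complexes, which hold genes of LXRs and other nuclear receptors at a low level. The interaction asks whether the genotype label altered what ACs did to each transcript. A positive log2 interaction means that the AC response was more positive in HDAC3 KO than in WT, and a negative value that it was more negative.

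Total counts of the 12 libraries ranged from 4704491 to 26421267. The smallest was HDAC3 KO untreated replicate 1, which also stood apart in composition, with 13.4% of its counts on genes that are not protein coding against 1.61% to 5.2% in the other 11 libraries. Replicates of a group correlated at 0.864 to 0.966 (Pearson, across genes, log2 CPM). Macrophage markers, summed, stood at 7470 to 20000 CPM in every library, so the labelled cell type carried its defining transcripts. CPM values are scaled by TMM, edgeR's correction of library totals for composition. In bulk RNA, fewer cells with a transcript and less transcript per cell cannot be told apart.

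The targeted gene did not follow the genotype labels. Hdac3 stood at 3.39, 44.5 and 32.0 CPM in WT untreated libraries, at 7.18, 38.5 and 29.8 CPM in WT AC libraries, at 39.1, 11.4 and 74.7 CPM in HDAC3 KO untreated libraries and at 39.7, 10.1 and 18.0 CPM in HDAC3 KO AC libraries. The lowest values of all were those of replicate 1 in both WT groups, and the groups overlapped throughout. The counts cover the whole gene, not exon 7, so a transcript that lacks this exon would still be counted and the level cannot check the deletion. The log2 interaction of Hdac3 was -0.81 ± 1.23 (SE; edgeR adjusted p = 0.71), between -1.36 and -0.04 with a library left out. Genotypes are therefore those of the libraries labelled WT and HDAC3 KO.

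No gene passed the interaction test. Of 13225 genes tested with edgeR's quasi-likelihood test, 0 had a Benjamini-Hochberg adjusted p under 0.05, and the smallest adjusted p was 0.112. An unadjusted p under 0.05 was held by 3187 genes (24.1%), of which 1295 had a positive interaction (9.79% of all tested) and 1892 a negative interaction (14.3%). DESeq2's Wald test called 1239 of the 10174 genes to which it gave an adjusted p (12.2%), 331 higher (3.25%) and 908 lower (8.92%), and all 1239 had an unadjusted p under 0.05 in edgeR with the same sign. limma-voom called 0, with 3295 genes at an unadjusted p under 0.05. All genes and lists described next are thus read from values and unadjusted p, and none is a call of the main test. Across the alternatives, the smallest adjusted p lay between 1.52e-05 and 0.284.

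The 4 simple differences that make up the interaction came from the same fit. In it, HDAC3 KO differed from WT in 1895 genes without treatment (829 higher, 6.27%, and 1066 lower, 8.06%) and in 3 genes with ACs, all lower (0.0227%): Fastkd2, 9430060I03Rik and Zmiz1os1, named after their values were seen. Unadjusted p under 0.05 were held by 4920 genes (37.2%) without treatment and 2982 (22.5%) with ACs. The AC response called 0 genes in either genotype with edgeR, with 2651 genes at an unadjusted p under 0.05 in HDAC3 KO (20%) and 675 in WT (5.1%). These comparisons share libraries with the interaction and are given only to place it. Over 10 bins of genes by transcript GC content, the median untreated HDAC3 KO minus WT difference was -1.20 in bin 1, the lowest, and 0.97 in bin 10. With ACs it was -0.81 and -0.56 in these bins. No offset for GC content was fitted for the simple differences, so its part in their counts was not tested. In the libraries themselves, 294 genes (2.22%) had every WT AC library above every WT untreated library and every HDAC3 KO AC library below every HDAC3 KO untreated library, and 192 genes (1.45%) had the mirror pattern. By contrast, 5 genes (0.0378%) stood higher with ACs in both genotypes without overlap and 25 (0.189%) stood lower in both.

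**Figure D1:**
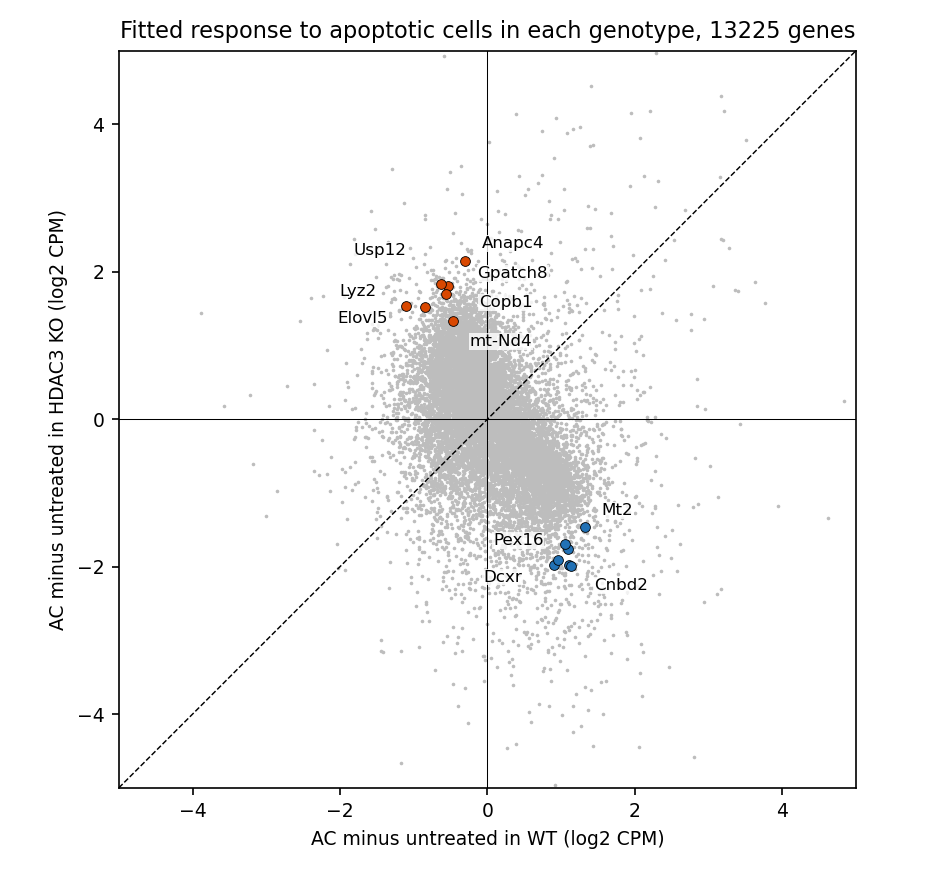
Each grey point is 1 of 13225 genes, with its fitted AC minus untreated difference (log2 CPM) in WT on the x axis and in HDAC3 KO on the y axis; the dashed line marks equal responses, blue points are 7 genes with a negative interaction described in the text, orange points 7 genes with a positive one, and 19 genes lie outside the limits of 5. The coloured genes lie in the quadrants where the fitted responses have opposite signs.

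The interaction moved with the GC content and the length of the transcripts. The 13199 genes with a value were split into 10 bins of equal size by the GC content of their GENCODE M21 transcripts. The median log2 interaction was 0.86 in bin 2 (42.3% to 44.6% GC), 0.05 in bin 6 (50.3% to 52.2%) and -1.59 in bin 10 (58.0% to 75.5%). In bin 10, 612 of 1320 genes (46.4%) had a negative interaction with an unadjusted p under 0.05, and 1 gene had a positive one. Over 10 bins by transcript length, the median ran from -0.78 in bin 1, the shortest, to 0.47 in bin 10, with 19.6% and 3.4% of genes negative at that level. The libraries differed in the same property: the level of the GC-richest quartile of genes minus that of the GC-poorest, relative to the mean library, was -1.29, -1.31 and -0.60 (log2) in WT untreated and 0.42, 1.07 and 1.59 in HDAC3 KO untreated, without overlap. With ACs the values overlapped, at -0.83, 0.75 and -0.07 in WT and 0.04, -0.66 and 1.09 in HDAC3 KO. With per-gene offsets that level out GC content and transcript length in each library, the medians of the bins lay between -0.31 and 0.09, and 800 genes (6.05%) had a positive and 1325 (10%) a negative interaction at an unadjusted p under 0.05. The offset covers both properties, and the part of either in any gene's interaction was not tested further. The median of each pathway list is also given with the offset, as are values of many of the genes. Counts of list members are read against the shares of all genes in the same fit, which were 9.79% positive and 14.3% negative without the offset, 6.05% and 10% with the offset, and 15.2% and 12.2% without HDAC3 KO untreated replicate 1.

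**Figure D2:**
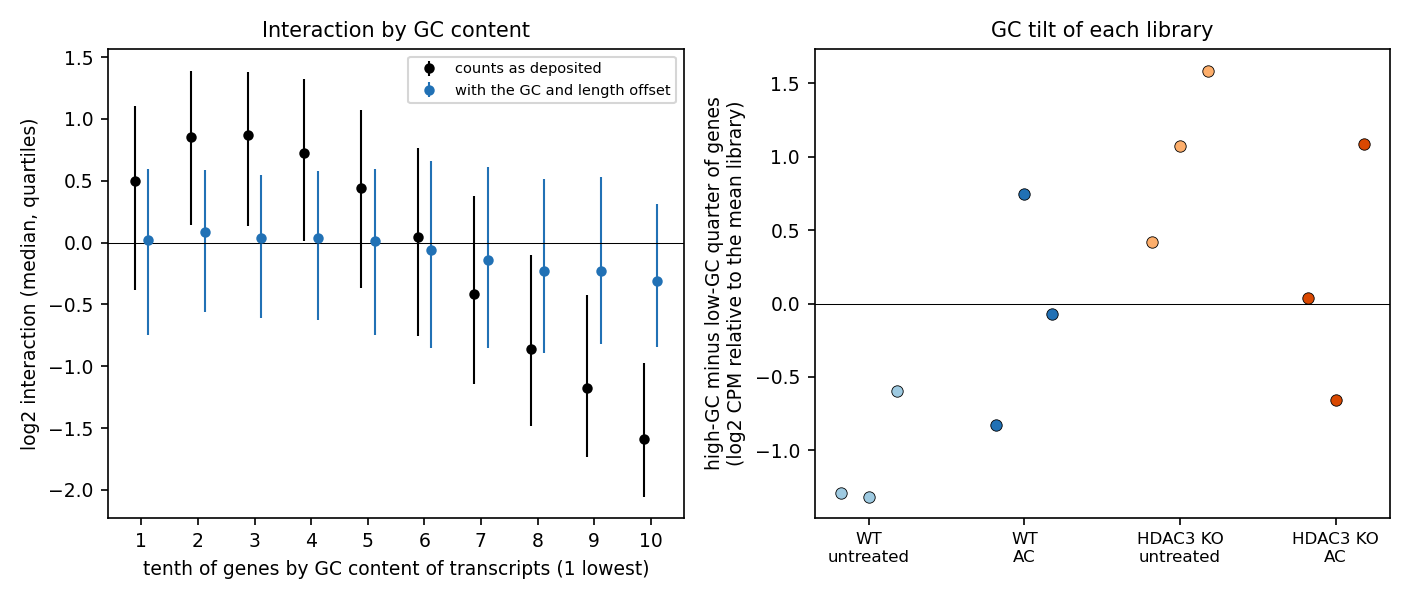
The left panel shows the median log2 interaction (points) and its quartiles (bars) in 10 bins of genes ordered by transcript GC content, for the counts as deposited and with the GC and length offset; the right panel shows, for each of the 12 libraries, the log2 level of the top quartile of genes by GC minus that of the bottom quartile, relative to the mean library. The medians run from 0.49 in bin 1 to -1.59 in bin 10 without the offset, and the WT untreated and HDAC3 KO untreated libraries lie on opposite sides of 0.

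Among genes with a mean of at least 10 CPM, the 6 with the smallest unadjusted p on the negative side were Cnbd2, Zfp771, Dcxr, Rps19-ps6, Pex16 and Pdlim4. Cnbd2, a cyclic nucleotide-binding domain protein gene (GRCm38, chromosome 2, 156312299 to 156375638), stood at 30.7, 28.0 and 39.8 CPM in WT untreated, 65.9, 78.0 and 67.6 CPM in WT AC, 119.9, 31.2 and 49.8 CPM in HDAC3 KO untreated and 13.5, 19.0 and 18.4 CPM in HDAC3 KO AC libraries. The AC libraries lay wholly above the untreated ones in WT and wholly below them in HDAC3 KO. Its log2 interaction was -3.08 ± 0.63 (SE; edgeR unadjusted p = 8.96e-05, adjusted p = 0.112), -3.47 with the offset and -2.17 without HDAC3 KO untreated replicate 1. Dcxr, the dicarbonyl and L-xylulose reductase (chromosome 11, 120725399 to 120727281), showed the same separation, at 154, 143 and 282 CPM in WT untreated, 290, 430 and 364 CPM in WT AC, 441, 173 and 237 CPM in HDAC3 KO untreated and 50.02, 71.6 and 94.6 CPM in HDAC3 KO AC. Its interaction of -2.88 was -1.39 with the offset, and its transcripts are 60.0% GC.

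Zfp771, a zinc finger gene (chromosome 7, 127244274 to 127254803; 64.1% GC), had an interaction of -3.13, with the AC libraries above the untreated in WT and below them in HDAC3 KO, and -1.56 with the offset. Pex16, needed for the assembly of the peroxisome membrane (chromosome 2, 92374676 to 92381217), and Pdlim4, which holds PDZ and LIM domains (chromosome 11, 54054928 to 54069014), had interactions of -2.85 and -2.74 (-1.63 and -1.72 with the offset). In both, the HDAC3 KO groups were apart and the WT groups overlapped. Rps19-ps6 (chromosome 12, 110898114 to 110898551) is a pseudogene that may share reads with Rps19. Its interaction was -3.42 (-2.36 with the offset), with the WT groups apart and the HDAC3 KO groups overlapping, while Rps19 itself, named after its value was seen, had -0.998 ± 0.54 (edgeR unadjusted p = 0.0788). Each of these 6 kept a negative value in every fit that left out a library, with the smallest size at -2.17 for Cnbd2 without HDAC3 KO untreated replicate 1. Their edgeR adjusted p was 0.112 in each case.

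On the positive side the 6 were Elovl5, Anapc4, Gpatch8, Usp12, Copb1 and Lyz2. Elovl5, an elongase of polyunsaturated fatty acids (chromosome 9, 77917364 to 77984519), stood at 16.8, 12.2 and 13.5 CPM in WT untreated, 9.4, 6.04 and 8.33 CPM in WT AC, 4.32, 8.41 and 4.68 CPM in HDAC3 KO untreated and 24.4, 16.7 and 9.66 CPM in HDAC3 KO AC. The groups did not overlap within either genotype, and they went in opposite directions. The log2 interaction was 2.37 ± 0.61 (edgeR unadjusted p = 0.000955, adjusted p = 0.112) and 1.57 with the offset. Anapc4, a subunit of the anaphase-promoting complex (chromosome 5, 52834012 to 52867797), had 10.4, 12.5 and 13.0 CPM in WT untreated, 12.0, 7.64 and 9.57 CPM in WT AC, 2.79, 5.02 and 4.98 CPM in HDAC3 KO untreated and 26.1, 23.9 and 8.23 CPM in HDAC3 KO AC. Only the HDAC3 KO groups were apart, and the interaction of 2.45 was 1.48 with the offset.

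The same was seen for Gpatch8 (2.33; chromosome 11, 102475915 to 102556392), for the deubiquitinase Usp12 (2.47; chromosome 5, 146734809 to 146795006) and for Copb1 (2.26; chromosome 7, 114215559 to 114254711), a coatomer subunit of vesicles between Golgi and endoplasmic reticulum. With the offset these were 1.76, 1.70 and 1.49. Lyz2, which encodes lysozyme and is the locus that carries Cre in HDAC3 KO mice (chromosome 10, 117277331 to 117282321), stood at 13840, 6739 and 4533 CPM in WT untreated, 5429, 3039 and 3206 CPM in WT AC, 1494, 2569 and 3093 CPM in HDAC3 KO untreated and 6135, 10470 and 4091 CPM in HDAC3 KO AC libraries. Without treatment, every HDAC3 KO library was below every WT library, and with ACs the genotypes overlapped. The log2 interaction of Lyz2 was 2.64 ± 0.71 (edgeR unadjusted p = 0.00132, adjusted p = 0.112), 2.22 with the offset and 2.09 to 2.96 with a library left out. The 6 positive genes had GC contents of 42.1% to 49.7%.

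**Figure D3:**
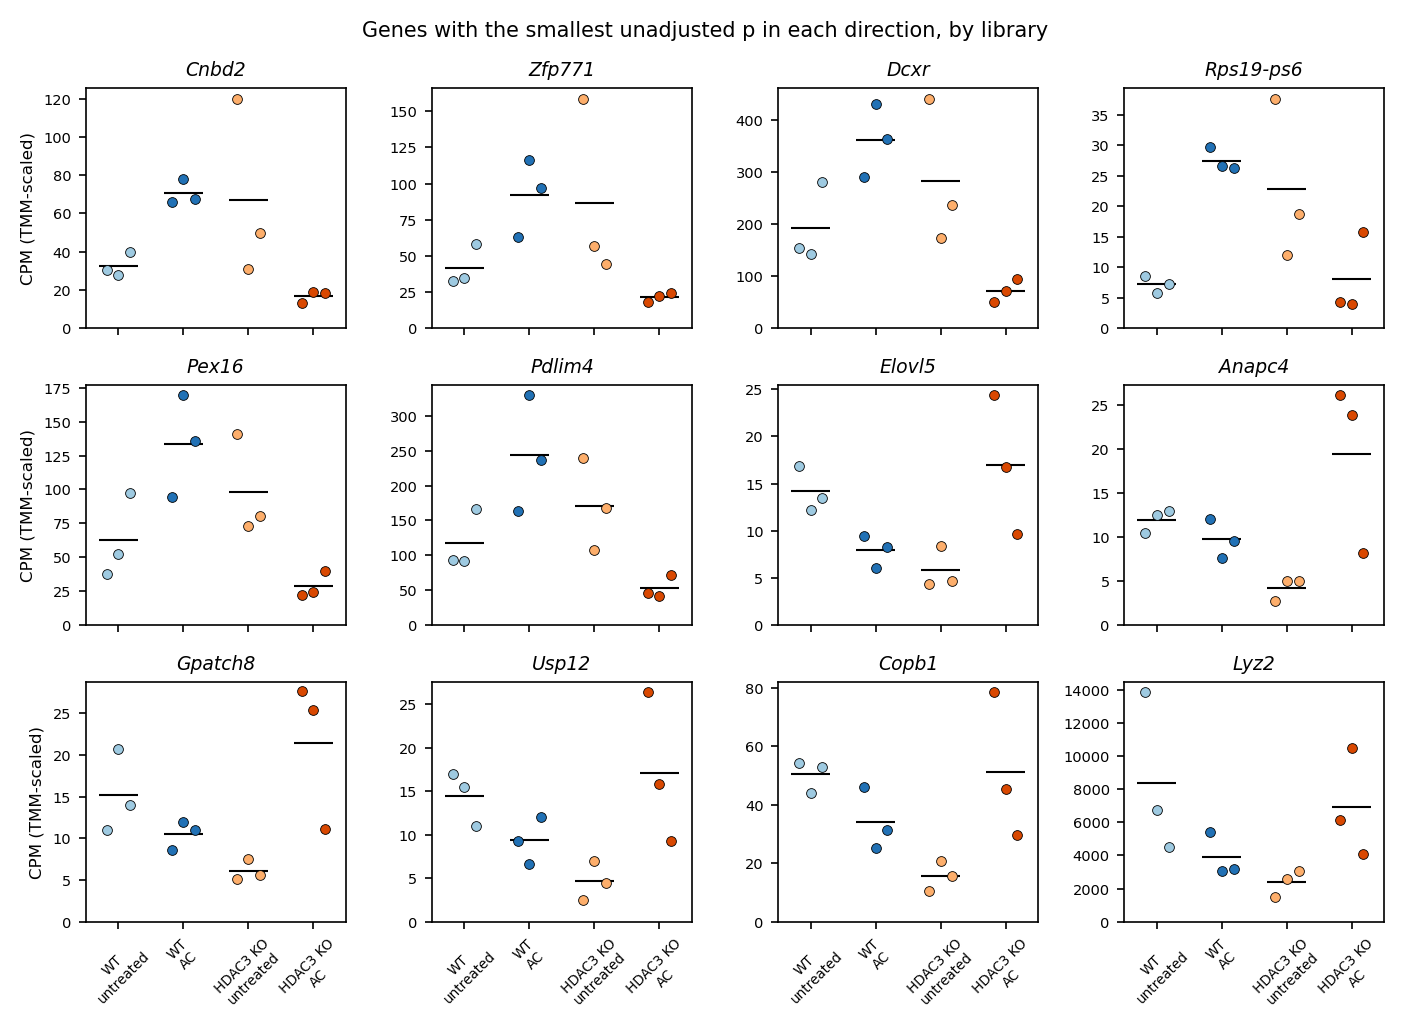
TMM-scaled CPM of the 12 genes with the smallest unadjusted p in each direction, in each of 12 libraries (points, in the order replicate 1 to 3) with the group mean (line), on axes that start at 0. For Cnbd2, Zfp771 and Dcxr the AC libraries lie above the untreated ones in WT and below them in HDAC3 KO, and for Elovl5 the order is reversed.

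The metallothioneins Mt1 and Mt2, which bind zinc and copper and are induced by metals and oxidative stress, had like interactions and were named after their values were seen. Mt1 stood at 285, 189 and 381 CPM in WT untreated, 586, 573 and 510 CPM in WT AC, 1108, 362 and 338 CPM in HDAC3 KO untreated and 101, 182 and 196 CPM in HDAC3 KO AC libraries. Mt2 stood at 17.4, 8.9 and 26.2 CPM, 54.0, 39.5 and 37.7 CPM, 57.2, 38.1 and 19.8 CPM and 8.6, 16.1 and 16.8 CPM in the same groups. For both, every AC library was above the untreated ones in WT and below them in HDAC3 KO. The log2 interaction was -2.88 ± 0.67 for Mt1 and -2.78 ± 0.67 for Mt2 (edgeR unadjusted p = 0.000374 and 0.000468, adjusted p = 0.112 for each), -2.20 and -2.01 with the offset, and -1.93 and -2.24 without HDAC3 KO untreated replicate 1.

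The promoters of this pair are shown because metallothionein genes are the textbook targets of the metal-responsive factor MTF1, whose element has the core TGCACNC or TGCGCNC. The windows run from 250 bases before to 50 bases after the start in RefSeq (GRCm38.p6, plus strand, chr8:94178839-94179138 for Mt1 and chr8:94172368-94172667 for Mt2), 5′ to 3′, with each core on either strand in capitals.
Mt1: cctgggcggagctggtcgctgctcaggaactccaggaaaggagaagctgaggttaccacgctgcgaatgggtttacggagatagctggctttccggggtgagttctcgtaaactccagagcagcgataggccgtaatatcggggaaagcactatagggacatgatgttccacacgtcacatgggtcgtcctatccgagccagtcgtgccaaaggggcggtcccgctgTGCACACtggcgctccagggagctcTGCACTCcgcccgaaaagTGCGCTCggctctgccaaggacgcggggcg
Mt2: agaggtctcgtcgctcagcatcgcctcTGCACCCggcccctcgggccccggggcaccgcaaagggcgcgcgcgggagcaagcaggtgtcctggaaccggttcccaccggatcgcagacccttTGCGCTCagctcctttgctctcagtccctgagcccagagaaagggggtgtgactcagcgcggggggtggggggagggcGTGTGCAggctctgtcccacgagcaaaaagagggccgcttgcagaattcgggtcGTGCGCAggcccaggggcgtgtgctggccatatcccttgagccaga
Mt1 held 3 cores and Mt2 held 4. Of 32851 RefSeq promoters of this length, 25.7% held at least 1 core, 1.97% at least 3 and 0.517% at least 4. A match in these letters is a description of the window and not of binding.

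Counts of efferocytosis genes depended on the fit. Of the 24 genes in the list the study drew up from these same samples, all 24 were tested, and 0 had a positive and 2 a negative interaction with an unadjusted p under 0.05, against 9.79% and 14.3% of all genes. The median was -0.05, beside -0.03 over all genes, and 0.40 with the offset, where 4 were positive and 3 negative, beside 6.05% and 10% of all genes. There were 3 and 3 without HDAC3 KO untreated replicate 1 (12.5% each, beside 15.2% and 12.2%), at a median of 0.24. The pair on the negative side were Nr1h3 and Tnf. Since the study chose this list on these libraries, its direction is not independent evidence.

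Nr1h3 encodes LXRα, the oxysterol receptor that HDAC3 corepressors act on. It stood at 117, 192 and 436 CPM in WT untreated, 248, 486 and 469 CPM in WT AC, 370, 292 and 386 CPM in HDAC3 KO untreated and 96.4, 82.6 and 208 CPM in HDAC3 KO AC libraries. The WT groups overlapped, and each HDAC3 KO AC library was below every HDAC3 KO untreated library. The log2 interaction was -2.13 ± 0.69 (edgeR unadjusted p = 0.00606, adjusted p = 0.116), -1.26 with the offset, and its transcripts are 57.1% GC. The partners Rxrb (-2.18) and Nr1h2 (-1.94), which encode the retinoid X receptor β and LXRβ, had negative values too and GC contents of 60.5% and 60.9%. With the offset these were -1.08 and -0.74.

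The LXR list held both the receptors and genes that they switch on. Of 19 members tested in the list of LXR targets and cholesterol efflux, 2 had a positive and 4 a negative interaction at an unadjusted p under 0.05 (10.5% and 21.1%, beside 9.79% and 14.3% of all genes), and the median was -0.12 (0.19 with the offset, with 3 positive and 2 negative). The positive members were the cholesterol exporter Abca1 (1.26, and 0.42 with the offset) and the phosphodiesterase-like Smpdl3a (1.86), and the negative ones were the receptors Nr1h3, Nr1h2 and Rxrb and the fatty acid synthase Fasn (-1.51). The exporter Abcg1 had 0.91 ± 0.55 and Apoe, a lipid-carrying apolipoprotein, 1.65 ± 0.90, with unadjusted p of 0.113 and 0.0824 in edgeR. With the offset Abcg1 was at 1.26 (edgeR unadjusted p = 0.00655) and Apoe at 3.06 (edgeR unadjusted p = 0.015). Apoe was at 0.62 without WT untreated replicate 1.

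Cd5l, a secreted scavenger protein of macrophages, stood at 14.5, 190 and 149 CPM in WT untreated, 20.8, 167 and 121 CPM in WT AC, 158, 212 and 356 CPM in HDAC3 KO untreated and 394, 290 and 482 CPM in HDAC3 KO AC libraries. Replicate 1 of each WT group was far below the other libraries of its group, as it was for Hdac3, and the HDAC3 KO AC libraries lay above all 6 WT libraries. The HDAC3 KO groups overlapped with each other. The log2 interaction of Cd5l was 0.88 ± 1.09 (edgeR unadjusted p = 0.435, adjusted p = 0.639), so a difference between the AC responses was not detectable in this fit. The fit had no replicate block, so the low replicate 1 of both WT groups counts toward its spread. The interaction of Cd5l was 1.04 with the offset, and it ran from 0.35 without WT untreated replicate 2 to 1.57 without WT AC replicate 2. The fitted HDAC3 KO minus WT difference was 1.92 with ACs and 1.04 without treatment, with edgeR adjusted p of 0.182 and 0.341.

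Among receptors and bridging proteins, Cd36, the scavenger receptor, stood at 274, 232 and 288 CPM, 330, 90.5 and 216 CPM, 78.3, 295 and 56.6 CPM and 262, 401 and 201 CPM in WT untreated, WT AC, HDAC3 KO untreated and HDAC3 KO AC libraries, with an interaction of 1.33 ± 0.79. Lrp1, a receptor for the calreticulin eat-me signal, had 1.15 ± 0.57, with the HDAC3 KO AC libraries (379, 324 and 440 CPM) above the HDAC3 KO untreated ones (142, 274 and 213 CPM) and the WT groups overlapping. The edgeR unadjusted p was 0.11 for Cd36 and 0.0563 for Lrp1. With the offset Cd36 was at 1.09 and Lrp1 at 1.95 (edgeR unadjusted p = 0.135 and 0.00261). Cd36 was at 2.64 without HDAC3 KO untreated replicate 2. Gas6, the bridge between phosphatidylserine and TAM receptors, had 0.47 ± 0.72, and a single library, HDAC3 KO untreated replicate 3, held 845 CPM against 133 and 213 CPM in its group. The interaction of Gas6 was 1.67 without that library and 1.55 with the offset (edgeR unadjusted p = 0.0289).

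Of the TAM receptors, Mertk stood at 81.8, 94.5 and 62.6 CPM in WT untreated, 135, 120 and 128 CPM in WT AC, 168, 35.5 and 32.6 CPM in HDAC3 KO untreated and 54.2, 65.3 and 27.6 CPM in HDAC3 KO AC. The WT groups did not overlap, and the HDAC3 KO groups did. Its interaction of -1.35 ± 0.75 was -2.17 with the offset and 0.07 without HDAC3 KO untreated replicate 1, so that library set its direction. Axl had -0.10 ± 1.13 and took the other sign under several settings, and the engulfment list as a whole had 3 members on the positive side (Dock1 1.56, Trio 1.38 and Wdfy3 1.26) and 1 on the negative side (Rhog -1.88) of 26 tested (11.5% and 3.85%, beside 9.79% and 14.3% of all genes), with a list median of 0.55 (0.31 with the offset). There were 6 and 1 without HDAC3 KO untreated replicate 1 (23.1% and 3.85%, beside 15.2% and 12.2%). With the offset Dock1 was at 0.76, Trio at 1.03 and Rhog at -0.80. Dock1 and Trio are exchange factors that activate small GTPases, and Rhog is a small GTPase.

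**Figure D4:**
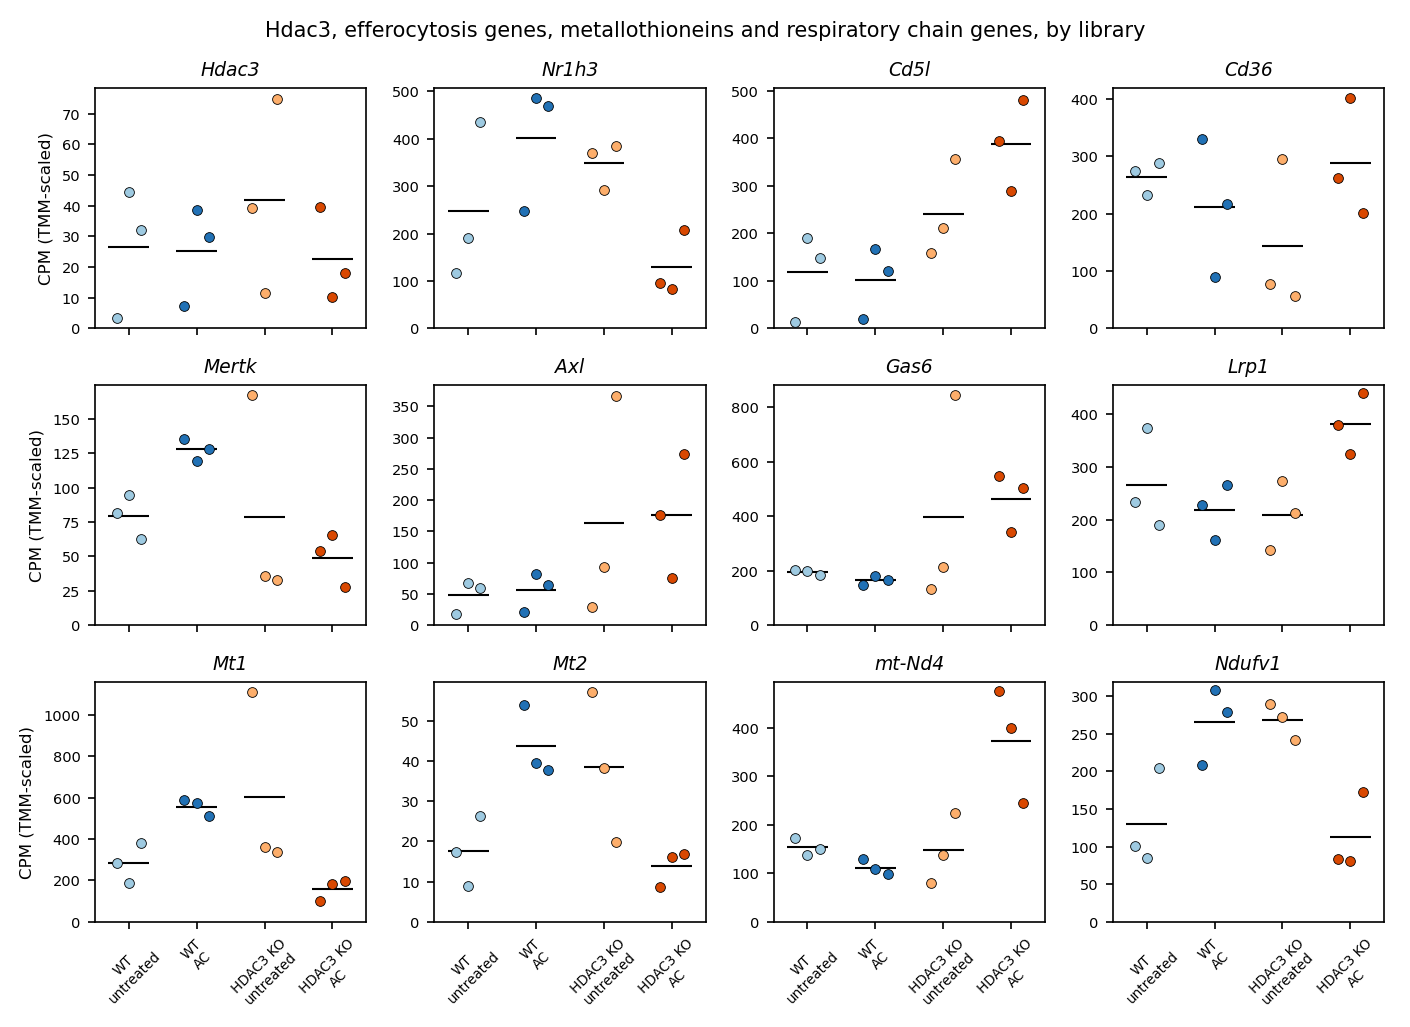
TMM-scaled CPM of Hdac3, 7 genes of efferocytosis and lipid sensing, Mt1, Mt2, the mitochondrial gene mt-Nd4 and the nuclear gene Ndufv1 in each of 12 libraries (points, replicate 1 to 3) with the group mean (line), on axes that start at 0. Hdac3 does not separate the genotype labels, Mertk has a single high HDAC3 KO untreated library at 168 CPM, and Mt1, Mt2 and Ndufv1 lie higher with ACs in WT and lower with ACs in HDAC3 KO.

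Respiratory chain genes had list medians of opposite sign by the genome that encodes them, and the lists were not tested against each other. The mitochondrial genome gave 10 tested protein genes, and all 10 had a positive interaction, 6 with an unadjusted p under 0.05 (60%, against 9.79% of all genes) and 0 negative. Their median was 1.67, the highest of the pathway lists, 1.60 with the offset (3 positive at an unadjusted p under 0.05, beside 6.05%) and 1.61 without HDAC3 KO untreated replicate 1. mt-Nd4, a complex I subunit (chromosome M, 10167 to 11544), stood at 173, 139 and 150 CPM in WT untreated, 129, 109 and 97.8 CPM in WT AC, 80.0, 138 and 224 CPM in HDAC3 KO untreated and 475, 400 and 244 CPM in HDAC3 KO AC libraries. Groups were apart in each genotype, lower with ACs in WT and higher in HDAC3 KO, with a log2 interaction of 1.80 ± 0.59 (edgeR adjusted p = 0.116). Values of the others ran from 0.53 for mt-Nd1 to 3.61 for mt-Co3, the last at 2.69 CPM or less in every library. The share of all counts on mitochondrial genes was 0.496% to 0.621% in WT untreated and 0.341% to 0.480% in WT AC libraries. It was 0.272% to 0.434% in HDAC3 KO untreated and 0.494% to 1.19% in HDAC3 KO AC libraries. These genes lie on 1 polycistronic genome and are not independent of each other.

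Most of the nuclear-encoded subunits lay on the other side. Of 77 tested, 26 (33.8%) had a negative and 5 (6.49%) a positive interaction with an unadjusted p under 0.05, beside 14.3% and 9.79% of all genes, and 58 of 77 were negative. The median was -0.61, -0.53 with the offset (20 negative and 4 positive, beside 10% and 6.05%) and -0.26 without HDAC3 KO untreated replicate 1 (20 negative and 5 positive, beside 12.2% and 15.2%). Ndufv1, a complex I subunit, stood at 101, 84.8 and 205 CPM in WT untreated, 208, 308 and 280 CPM in WT AC, 289, 272 and 242 CPM in HDAC3 KO untreated and 84.0, 81.1 and 172 CPM in HDAC3 KO AC. Its interaction was -2.28 ± 0.61 (edgeR adjusted p = 0.112) and -1.53 with the offset. Ndufa11 (-2.30, and -1.31 with the offset), Uqcrc1 of complex III (-2.26) and Atp5d of the ATP synthase (-2.24) were near it, while Atp5j (1.70) and Ndufs1 (1.67) had positive values. In 7 of the 77 genes the libraries crossed without overlap, higher with ACs in WT and lower in HDAC3 KO, beside 2.22% of all genes.

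Glycolysis and hypoxia genes had a negative median too. Of 29 tested, 9 (31%) had a negative and 2 (6.9%) a positive interaction with an unadjusted p under 0.05, beside 14.3% and 9.79% of all genes, and the median was -0.54. With the offset the counts were 9 and 2 as well, beside 10% and 6.05%, at a median of -0.60. The negative members included Gapdh (-2.21 ± 0.70), Pfkl of phosphofructokinase (-1.96 ± 0.55), the lactate exporter Slc16a3 (-2.04 ± 0.58), Tpi1 (-1.87) and Aldoa (-1.83). With the offset Gapdh was at -1.72, Pfkl at -1.06 and Slc16a3 at -1.13. Gapdh stood at 2091, 1735 and 4011 CPM in WT untreated, 4758, 6244 and 4612 CPM in WT AC, 2471, 6408 and 4851 CPM in HDAC3 KO untreated and 1655, 1013 and 3254 CPM in HDAC3 KO AC libraries. The WT groups were apart and the HDAC3 KO groups overlapped. The positive members were the mitophagy receptor Bnip3 (1.80) and Hif1a (1.44), the oxygen-sensing transcription factor. Hexokinase 2 (Hk2) had the largest size, -4.54 ± 1.42, but HDAC3 KO untreated replicate 1 held 2746 CPM against 95.8 and 116 CPM in its group, and without it the value was -1.08.

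Of 20 NRF2 antioxidant genes, 12 had a positive and 8 a negative interaction. An unadjusted p under 0.05 was held by 5 on the positive side (25%, beside 9.79% of all genes) and 1 on the negative side (5%, beside 14.3%), and with the offset by 4 and 0, beside 6.05% and 10%. Catalase, Cat, stood at 70.7, 56.3 and 40.5 CPM in WT untreated, 51.2, 29.0 and 32.3 CPM in WT AC, 9.91, 17.7 and 24.5 CPM in HDAC3 KO untreated and 77.6, 40.5 and 31.2 CPM in HDAC3 KO AC. The interaction of Cat was 2.08 ± 0.63 (edgeR adjusted p = 0.112), of the thioredoxin reductase Txnrd1 1.85 ± 0.60 and of the glutathione reductase Gsr 1.80 ± 0.62. The factor itself, Nfe2l2, had 1.58, and Gpx4, which reduces lipid peroxides, -1.37. The list median was 0.41, and 0.19 with the offset.

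Lipid and secretory pathways held members on both sides. Of 24 cholesterol synthesis genes, 6 had a positive and 5 a negative interaction with an unadjusted p under 0.05 (25% and 20.8%, beside 9.79% and 14.3% of all genes), at a median of 0.67 that was 0.20 with the offset. There were 10 and 6 without HDAC3 KO untreated replicate 1 (41.7% and 25%, beside 15.2% and 12.2%). The positive ones included the squalene epoxidase Sqle (1.67 ± 0.67), Msmo1 (1.84), Sc5d (1.92) and Hsd17b7 (2.64), whose transcripts had 44.0% to 48.7% GC and whose values lay between 0.90 and 1.70 with the offset. The negative ones were Tm7sf2 (-1.90), Mvd (-1.73), Mvk (-1.65), Ebp (-1.34) and Pmvk (-1.26). With the offset 2 members were beyond an unadjusted p of 0.05 in each direction.

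Of 36 lysosomal genes, 5 were on the positive and 3 on the negative side at an unadjusted p under 0.05 (13.9% and 8.33%, beside 9.79% and 14.3% of all genes), with the cathepsins Ctsc (2.10 ± 0.71) and Ctss (2.01 ± 0.67) at the top and Tfeb, the transcription factor of lysosome genes, at the bottom (-2.16 ± 0.61; 61.3% GC, -1.05 with the offset). With the offset Ctsc was at 1.15 and Ctss at 1.39, and the list median of 0.49 was 0.28. There were 5 and 5 without HDAC3 KO untreated replicate 1. Endoplasmic reticulum stress genes were divided as well, with 4 chaperone or sensor genes positive (Atf6 1.88, Pdia4 1.84, Hspa5 1.75 and Pdia3 1.56) and 3 genes of the integrated stress response negative (Chac1 -2.73, Trib3 -2.12 and Sesn2 -1.34) among 20. Their list median was 0.14, and 0.09 with the offset, where 5 were positive and 1 negative (beside 6.05% and 10% of all genes), Chac1 was at -1.65 and Pdia4 at 1.36. Without the offset the counts are 20% and 15% of the list, beside 9.79% and 14.3% of all genes, and without HDAC3 KO untreated replicate 1 they were 7 and 3, beside 15.2% and 12.2%. Hspa5, the luminal chaperone BiP, stood at 273, 247 and 107 CPM in HDAC3 KO AC libraries, above the 61.8, 80.7 and 75.6 CPM in HDAC3 KO untreated ones, while the WT groups overlapped. Its interaction was 0.92 with the offset. Chac1 was at -1.46 without HDAC3 KO untreated replicate 2.

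Corepressor genes themselves were among the lists. Of 12 genes of the NCoR and SMRT complexes and class I deacetylases, 4 had a positive interaction (Tbl1xr1 1.90, Sin3a 1.69, Tbl1x 1.53 and Hdac2 1.38) and 1 a negative one, Gps2 (-1.95 ± 0.60), at an unadjusted p under 0.05 (33.3% and 8.33%, beside 9.79% and 14.3% of all genes). With the offset none of the 12 had an unadjusted p under 0.05, and Tbl1xr1 was at 0.94, Sin3a at 0.86 and Gps2 at -1.02. Tbl1xr1 was at 1.09 without HDAC3 KO AC replicate 2, and Gps2 at -1.19 without HDAC3 KO untreated replicate 1. The list median was 0.43, 0.42 with the offset and 1.01 without HDAC3 KO untreated replicate 1, where 5 were positive and 1 negative.

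With all 12 libraries and without the offset, inflammatory lists had no positive member at an unadjusted p under 0.05. Their negative shares are read against 14.3% of all genes. Of 30 interferon-stimulated genes 0 were on the positive and 2 on the negative side (6.67%), Oas1a (-1.63) and Bst2 (-1.44), at a median of 0.20. With the offset that median was -0.31, Oas1a was at -1.45 and Bst2 at -0.17. Without WT AC replicate 2, Bst2 was at -0.935. Of 20 cytokine and chemokine genes, 0 were positive and 3 negative (15%), namely Tgfb1 (-2.36 ± 0.73, and -1.84 with the offset), Ccl4 (-1.72 ± 0.56) and Tnf (-1.62 ± 0.54), at a median of -0.11 (-0.24 with the offset, with 0 and 4, beside 6.05% and 10% of all genes). Tnf stood at 42.8, 26.4 and 34.7 CPM in WT untreated, 52.6, 56.0 and 41.1 CPM in WT AC, 58.5, 43.3 and 64.0 CPM in HDAC3 KO untreated and 16.9, 28.3 and 32.4 CPM in HDAC3 KO AC libraries. The HDAC3 KO groups were apart. Tnf was at -1.39 with the offset and between -1.81 and -1.28 with a library left out, and its edgeR adjusted p was 0.116. Without HDAC3 KO untreated replicate 1, 1 of 21 cytokine and chemokine genes was positive and 3 negative (4.76% and 14.3%, beside 15.2% and 12.2%). Of 28 immediate early and NF-kB feedback genes, 0 were positive and 5 negative (17.9%), led by the AP-1 subunit Jund (-2.80 ± 0.72; 67.1% GC, -1.28 with the offset), and with the offset 4 were positive and 1 negative, beside 6.05% and 10%. Without HDAC3 KO untreated replicate 1, 0 were positive and 2 negative. The median of that list was -0.28, and 0.04 with the offset.

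Among genes of macrophage states, Mrc1, the mannose receptor, had 1.83 ± 0.60 with HDAC3 KO AC libraries at 119, 113 and 51.0 CPM above HDAC3 KO untreated ones at 24.9, 44.7 and 27.7 CPM. Pparg had 1.59 ± 0.76 and Maf -2.39 ± 0.90, the latter -0.82 without HDAC3 KO untreated replicate 1. With the offset Mrc1 was at 1.11, Pparg at 0.85 and Maf at -2.97. Of 14 alternative activation genes tested, 2 were positive and 1 negative (14.3% and 7.14%, beside 9.79% and 14.3% of all genes), at a median of -0.13. With the offset 1 was positive and 3 negative, beside 6.05% and 10%, while the median was 0.47. Of 20 lipid-associated macrophage genes, 1 was positive (5%), Cd9 (1.79), and 0 negative, at a median of -0.17 (-0.04 with the offset). Without HDAC3 KO untreated replicate 1 that list had 0 in either direction, beside 15.2% and 12.2% of all genes. Cd9 ran from 1.34 to 2.98 with a library left out, the latter without HDAC3 KO untreated replicate 2. Of 11 genes of MHC class II and costimulation, 0 were positive and 2 negative (18.2%), the peptide-loading genes H2-DMb1 (-1.85, and -1.39 with the offset) and H2-DMa (-1.56, and -0.57 with the offset), at a median of -0.67 that was 0.24 with the offset.

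Cell death regulators divided 3 and 3 among 20 (15% each, beside 9.79% and 14.3% of all genes), with the kinase Ripk1 (1.67) among the positive ones, and Bak1 (-1.91), Bax (-1.59) and Bcl2l1 (-1.58) of the BCL2 family negative. With the offset 1 was positive and 2 negative, Bak1 was at -0.97, Bax at -0.23 and Bcl2l1 at -1.31, and the list median of 0.48 was 0.03. Bax was at -1.04 without HDAC3 KO untreated replicate 1. None of 20 proliferation genes had an unadjusted p under 0.05 in edgeR (median 0.41, and -0.06 with the offset), and without HDAC3 KO untreated replicate 1 there were 2 positive and 0 negative at a median of 0.76. Of 14 heat shock genes 1 was positive (Hspd1 1.44) and 2 negative (Cryab -2.32 and the factor Hsf1 -1.91). The heat shock median was -0.56, and -0.26 with the offset, where Hsf1 was at -0.89, Hspd1 at 0.97 and Cryab at -1.64. These counts are 7.14% and 14.3% of the list, beside 9.79% and 14.3% of all genes. Without HDAC3 KO untreated replicate 1, 2 were positive and 2 negative (14.3% each, beside 15.2% and 12.2%), at a median of -0.17. Cryab was at -1.39 without WT AC replicate 2.

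Clustered histone genes and small nucleolar RNAs gave the lowest list medians. Of 47 clustered histone genes, which encode replication-dependent histones whose messages end without a poly(A) tail, 43 had a negative and 4 a positive interaction, and an unadjusted p under 0.05 was held by 22 of the negative ones (46.8%, beside 14.3% of all genes) and 1 of the positive ones, at a median of -2.02. With the offset the median was -0.82 (7 negative and 1 positive of 47, beside 10% and 6.05%), and without HDAC3 KO untreated replicate 1 it was -1.19. In that last fit 7 of 48 were negative (14.6%, beside 12.2% of all genes), so the share was near that of all genes. Hist1h4c stood at 3.79, 3.68 and 6.54 CPM in WT untreated, 12.0, 9.12 and 8.2 CPM in WT AC, 15.2, 4.56 and 3.29 CPM in HDAC3 KO untreated and 1.42, 1.34 and 1.29 CPM in HDAC3 KO AC libraries. It crossed without overlap, with -3.51 ± 0.75 (edgeR adjusted p = 0.112), -3.32 with the offset and -2.42 without that library. Histone copies are near-identical, and reads shared between them may have been split or dropped in counting.

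Small nucleolar and Cajal body RNAs had a median of -2.38 over the 10 of 150 members that passed the filter on low counts, -0.77 with the offset and -0.51 without HDAC3 KO untreated replicate 1. Of 81 ribosomal protein genes, 2 were positive and 12 negative (2.47% and 14.8%, beside 9.79% and 14.3% of all genes), at a median of -0.35 that was -0.14 with the offset and 0.13 without that library, which held the highest level of Rps28 (3191 CPM). Without it 6 were positive and 6 negative, beside 15.2% and 12.2%. Rps28 had -2.41 ± 0.64 and Rpl4 2.28 ± 0.64. Of 283 Zfp genes, 18 were positive and 32 negative (6.36% and 11.3%, beside 9.79% and 14.3% of all genes), at a median of 0.30 (-0.01 with the offset). Without HDAC3 KO untreated replicate 1, 40 of 292 Zfp genes were positive and 29 negative, beside 15.2% and 12.2% of all genes. Of 11 small nucleolar RNA host genes 1 was positive (9.09%, beside 9.79% of all genes), Snhg5 (2.77, and 1.99 with the offset), and 0 negative, at a median of 0.82 (0.37 with the offset). Without HDAC3 KO untreated replicate 1, 4 of 11 were positive (36.4%, beside 15.2%), at a median of 1.32. The 6 nuclear long noncoding RNAs gave 0 in either direction, at a median of 0.33 (-0.42 with the offset). Without HDAC3 KO untreated replicate 1, 1 of 6 was positive, at a median of 1.25.

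**Figure D5:**
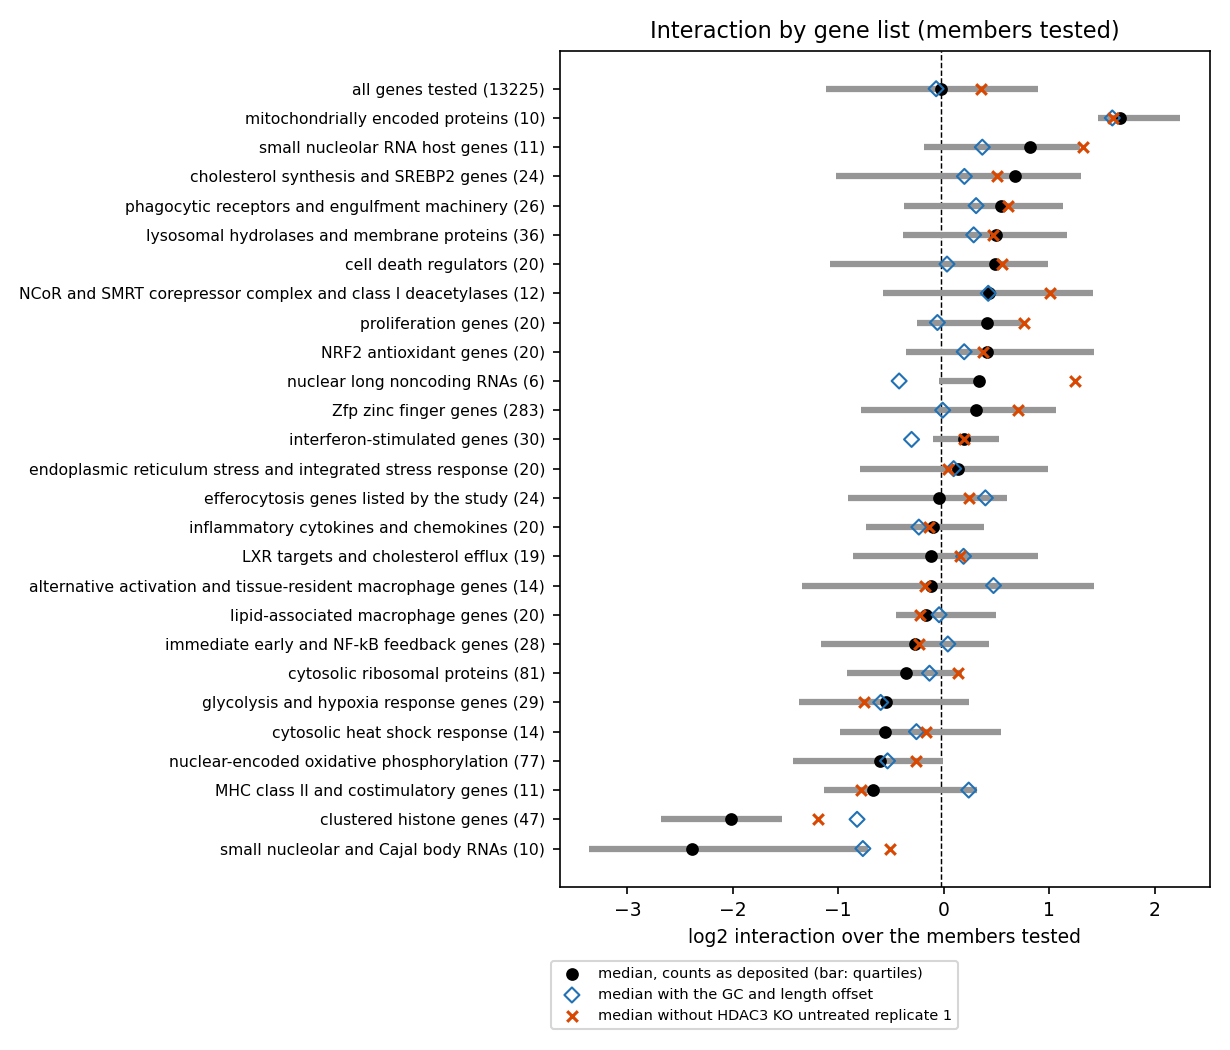
Median log2 interaction over the tested members of each pathway list (black points, with quartiles as grey bars and the number tested in parentheses), with the medians under the GC and length offset (open diamonds) and without HDAC3 KO untreated replicate 1 (crosses); the dashed line is the median of all genes. The mitochondrially encoded genes stay near 1.6 under all 3 fits, while the clustered histone genes and small nucleolar RNAs move from -2.02 and -2.38 toward 0.

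Markers of other cells had lower sums than macrophage markers in every library, and their part in the interaction was not tested. The summed CPM of 12 granulocyte markers ran from 230 to 1300 in WT untreated, 389 to 1010 in WT AC, 423 to 1100 in HDAC3 KO untreated and 456 to 789 in HDAC3 KO AC libraries, with the neutrophil elastase gene Elane at a log2 interaction of -2.71 ± 1.11 (-1.39 with the offset). Dendritic cell markers ran from 4.92 to 12.9 CPM and 8.55 to 20.8 CPM in WT and from 14.2 to 144 CPM and 42.3 to 96.5 CPM in HDAC3 KO, B cell markers from 30.4 to 75.8 CPM in WT and 61.0 to 137 CPM in HDAC3 KO, and fibroblast markers from 9.11 to 327 CPM over all libraries. Itgax alone held 138 of the 144 CPM and 90.8 of the 96.5 CPM of dendritic cell markers. Of the other tested members, Batf3 stood at 4.10 CPM or less and Dpp4 at 2.80 CPM or less. The dendritic cell sums are thus mostly a reading of 1 gene. T and NK cell markers reached 111 CPM and mast cell and basophil markers 37.6 CPM. The 111 CPM, in HDAC3 KO untreated replicate 3, was nearly all Cd4 (109 CPM), with Lck at 0.55 and Nkg7 at 0.50 CPM. Replicate 1 of WT untreated and WT AC stood lowest for fibroblast markers, at 9.11 and 12.5 CPM against 111 CPM or more elsewhere. The same libraries were lowest for T and NK cell markers, at 6.12 and 5.49 CPM against 19.8 CPM or more. Cd4 alone held 4.79 and 3.48 CPM of these sums, so they mostly follow 1 gene. Markers of erythroid and K562-like cells ran from 28.5 to 102 CPM, with Hemgn at 0 in all 12 libraries. These are counts on mouse genes and not a measure of human K562 RNA. Tfrc alone held 49.5 of the 62.1 CPM in WT untreated replicate 1. The 10 macrophage markers had a median interaction of -0.26, with Lyz2 and Itgam (2.12) positive and Spi1 (-1.20) negative at an unadjusted p under 0.05. With the offset that median was 0.08 and Spi1 was at -0.31. Itgam was at 1.28 without HDAC3 KO AC replicate 2, and Spi1 at -0.78 without WT AC replicate 2.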

How the data were processed

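Total RNA of macrophages was sequenced as paired ends from NEBNext Ultra II libraries. The authors deposited counts per gene, not normalized, 1 table per library. The submitters' processing notes name Trimmomatic 0.36, STAR 2.5.2b, featureCounts, Subread 1.5.2 and GRCm38, and the study aligned to mouse only. The study states that this minimizes the signal of ingested human RNA. It also acknowledges that unequal engulfment by knockout and control cells could have skewed its sequencing results. Neither point was tested here, and both bear on the AC libraries. The strand setting was not given in the sources used here, so reads of a gene and its antisense partner could not be told apart. Counts of the 12 libraries were filtered (filterByExpr, minimum count 10), TMM-scaled and fitted in edgeR 4.0.16 (R 4.3.3, quasi-likelihood, group means, no block). The interaction was tested two-sided, with Benjamini-Hochberg adjustment over all genes and a threshold of 0.05, and the steps were tested on simulated data. Alternatives were DESeq2 1.42.0, limma 3.58.1 (voom), other scalings and filters, all 18 libraries, replicate blocks, GC and length offsets (mgcv 1.9.3) and each library left out. Total counts limit precision most in the smallest library.

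Genes were named by rule: those passing the test with a mean of at least 10 CPM, filled to 6 a direction by the smallest unadjusted p, with accession-like names left out; in each list the 3 members with the smallest p; and Hdac3, Lyz2, Cd5l, Cd36, Axl, Gas6, Mertk, Lrp1 and Nr1h3. Other list members with an unadjusted p under 0.05 were named after their values were seen, as were mt-Nd1, Abcg1 and Apoe where they fell outside the rule. Members and lists were chosen with earlier results of these data known. No label ties a library to an animal, so p-values measure the spread between these libraries. Some members of the lists are not reported here by name.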

Additional observations from a re-analysis of the deposited data

How the results depend on the processing

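The number of genes with an adjusted p under 0.05 was 0 in edgeR, 1239 by DESeq2's Wald test and 140 with no filter on low counts. With a library left out it ran from 0 to 1100, at 471 without WT untreated replicate 3, 1100 without HDAC3 KO AC replicate 3 and 0 in each of the other 10 fits. The number with an unadjusted p under 0.05 (3187) ran from 2172 to 4138 with a library left out and was 1936 under the replicate block with the GC and length offset. Library totals alone, without TMM, moved the median of all genes from -0.03 to 0.495 and gave 2658 positive and 1120 negative interactions at that level, against 1295 and 1892. Without HDAC3 KO untreated replicate 1 there were 2107 positive and 1698 negative. List medians moved beyond the replicate spread in 22 of 34 lists with library totals and 13 with the offset. They did so in 12 lists without HDAC3 KO untreated replicate 2 and in 9 without HDAC3 KO untreated replicate 1. The cause was not tested.

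Replicate numbers were not treated as pairs in the main fit. Of 18 same-numbered pairs, which include pairs across genotypes, 4 correlated over 0.1 (deviations from group means). Within their genotype, 3 of 12 libraries matched best with their own number. Untreated and AC libraries of replicates 1, 2 and 3 correlated at 0.474, 0.130 and 0.067 in WT. In HDAC3 KO the values were -0.297, -0.260 and 0.272. A shared source of same-numbered libraries, as for WT replicate 1, was not tested. With the replicate block 0 genes were called and 3027 had an unadjusted p under 0.05, and nested in genotype the block gave 0 and 3028.

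Of 120 named genes, 60 passed the threshold under DESeq2, 22 with no filter, 31 without WT untreated replicate 3 and 53 without HDAC3 KO AC replicate 3. Signs turned as follows. The interaction of Axl was 0.40 with library totals, 0.39 with limma-voom, 0.00 with no filter, 0.05 with at least 10 counts in every library, 0.48 under the replicate block, 0.33 under the nested block, 0.64 with the offset and 1.04 with block and offset. Itgax gave 0.01 with library totals and also 0.01 under the block, 0.17 with limma-voom and 0.41 under the nested block. Cd4 gave 0.02 with library totals and 0.13 under the block, and Dpp4 -0.28 under the block and -0.78 with block and offset. Neat1 gave -0.26 with the offset and -0.27 with block and offset, and Prss34 0.10 with both. With a library left out, Snhg14 ran from -4.88 to 1.74, Kcnq1ot1 from -2.38 to 0.16 and Mertk from -1.71 to 0.07, each positive only without HDAC3 KO untreated replicate 1. In the same fits Cd4 ran from -1.03 to 0.70, Pdgfrb from -1.26 to 0.16, Dpp4 from -0.59 to 4.08, Itgax from -0.86 to 1.31, Prss34 from -2.21 to 0.65, Hdc from -0.56 to 0.93 and Axl from -0.57 to 1.32.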
